A study of Homo sapiens with 8 samples.

Results

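A set of 10 genes that carry iron into the cell, store it, export it or sense it was followed in Caco-2/15 cells, a human colon cancer line whose cells become enterocyte-like when a culture reaches confluence. They were chosen by gene symbol from the deposited count tables: TFRC, TFR2, SLC11A2 and CYBRD1 for uptake, FTH1 and FTL for storage, SLC40A1 and HEPH for export, and IREB2 and ACO1 for regulation. All 10 were found among 58302 gene IDs, and all 10 passed the filter on low counts. RNA-seq covered 4 groups of 2 libraries each. Z1flag cells have a Flag epitope on 1 copy of H2AFZ (protein H2A.Z.1) and Z2flag cells on 1 copy of H2AFV (protein H2A.Z.2), both introduced by CRISPR-Cas9 genome editing. Each line was sampled subconfluent and 7 days after confluence. Every group thus carries a tagged H2A.Z gene, untagged cells were not analysed here, and the number of clones behind a line was not given in the sources used here.

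An enterocyte takes up dietary iron at its apical side, where CYBRD1 reduces ferric iron and the transporter DMT1 (SLC11A2) carries it in. Iron bound to transferrin enters cells through transferrin receptors, ferritin (FTH1 and FTL chains) stores it, and ferroportin (SLC40A1) exports it with the help of the copper ferroxidase hephaestin (HEPH). When iron is scarce, the iron regulatory proteins IRP1 (ACO1) and IRP2 (IREB2) bind hairpins called iron-responsive elements, which blocks translation where the hairpin is in the 5′ UTR and protects the mRNA from decay where it is in the 3′ UTR.

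The hairpin letters are shown first because the iron regulatory proteins are known to act through them on several members. Protein-coding transcripts of all 10 genes were searched on the transcript strand. The pattern was a bulged C, 5 stem bases, the loop CAGAGN or CAGTGN, and 5 bases able to pair with the stem. Pairs allowed were A-T, G-C and G-T. Hairpin letters occurred in the 5′ UTR of FTH1, FTL and SLC40A1 and at 5 places in the 3′ UTR of TFRC. The other 6 members had 0 matches, which says only that these letters are not in their annotated protein-coding transcripts. Hairpins of another form would be missed. Of 19684 protein-coding genes searched, 337 (1.71%) had a match in a UTR, and 15 (0.0762%) had one in which at least 5 of the 6 flanking base pairs could also form. SLC40A1 and all 5 TFRC places met that stricter rule, and FTH1 and FTL, with 4 flanking pairs each, did not. The flanking bases were paired position by position and shifted pairings were not scored, so the rule does not rank the hairpins. Each line below gives 29 bases, 5′ to 3′ on the transcript strand and written with T, from GENCODE v29 on GRCh38, with the 6-base loop in capitals.
FTH1, 5′ UTR, chr11:61967574-61967602, minus strand: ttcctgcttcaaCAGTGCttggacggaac
FTL, 5′ UTR, chr19:48965335-48965363, plus strand: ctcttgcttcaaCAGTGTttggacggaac
SLC40A1, 5′ UTR, chr2:189580661-189580689, minus strand: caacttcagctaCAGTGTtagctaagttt
TFRC, 3′ UTR, chr3:196051029-196051057, minus strand: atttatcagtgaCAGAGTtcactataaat
TFRC, 3′ UTR, chr3:196050979-196051007, minus strand: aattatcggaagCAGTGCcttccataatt
TFRC, 3′ UTR, chr3:196050575-196050603, minus strand: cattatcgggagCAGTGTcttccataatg
TFRC, 3′ UTR, chr3:196050510-196050538, minus strand: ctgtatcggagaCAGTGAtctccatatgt
TFRC, 3′ UTR, chr3:196050463-196050491, minus strand: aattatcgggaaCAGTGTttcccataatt
Among members matched by this pattern, those with hairpin letters in the 5′ UTR store or export iron, and the one with them in the 3′ UTR takes it up. The search does not show that the other uptake genes lack an iron-responsive element. The counts below measure mRNA level, and translation was not measured.

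Depth was 17063826 to 40881682 gene counts per library, and 20.6% to 32.0% of the reads listed fell in no annotated feature. That share was highest in subconfluent and postconfluent Z1flag replicate 1 (32.0% and 31.4%), and calls of members that differ without both these libraries are given with both values. Levels are CPM (read counts scaled to library size) after TMM scaling between libraries. All 8 epithelial and enterocyte markers were detected, with a summed level of 11188 to 13473 CPM in subconfluent and 4222 to 7652 CPM in postconfluent libraries. Within that list KRT8 and KRT18 fell, 5 markers rose, VIL1 did not pass the test, and the enterocyte markers KRT20 and LGALS4 stood near 0 (0.567 ± 0.618 and 0.985 ± 0.101 CPM after confluence, SD, n = 4 libraries). Hepatocyte markers, which Caco-2 cells are known to express, summed to 232 to 688 CPM before and 3508 to 6170 CPM after confluence, and 6 of 6 rose. Erythroid markers summed to at most 0.169 CPM, with HBA2 at 0, and of the leukocyte and macrophage markers (10.1 to 26.6 CPM in sum before and 18.8 to 38.2 CPM after, 1 of 4 tested rose) PTPRC, CD163, CD3E and MS4A1 were under 1 CPM in every library, with MS4A1 at 0. The other leukocyte and macrophage markers were present: mean CD14 was 9.43 CPM before and 9.20 after confluence, LYZ 8.58 and 13.6, and CSF1R 2.72 and 6.31. Fibroblast markers summed to 92.3 to 115 and 63.9 to 79.99 CPM (1 of 3 tested rose and 1 fell). Mean LUM fell from 75.7 to 19.5 CPM and COL1A1 rose from 11.6 to 34.1 CPM. PDGFRB stood at 18.8 and 16.3 CPM, DCN was under 1 CPM in every library and COL1A2 was at 0. Endothelial markers summed to 4.64 to 11.3 and 7.99 to 22.8 CPM (2 of 2 tested rose). In bulk RNA, fewer cells of a type and less RNA per cell cannot be told apart.

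After confluence all 4 genes that store or export iron rose. HEPH, the ferroxidase, rose about 10.1-fold over both lines, FTH1 rose 2.52-fold, SLC40A1 2.47-fold and FTL 1.99-fold. Of the uptake genes, TFR2 rose 3.39-fold from a very low level and SLC11A2 rose 1.58-fold, while TFRC and CYBRD1 did not pass the test. ACO1 fell to 0.756 of its subconfluent level, and IREB2 did not pass. In the mean change over both lines, 6 members rose and 1 fell, where 27.8% of the 18240 genes tested rose and 27.5% fell (edgeR quasi-likelihood test, adjusted p under 0.05). The median member changed by 0.99 on the log2 scale and the median gene by -0.01. All 4 postconfluent libraries lay above all 4 subconfluent ones for 6 members and below them for 1, compared with 25.1% and 26.1% of all genes. With upper-quartile scaling the median of all genes moved to 0.18 and the split of all calls from 5076 rising and 5021 falling to 6248 and 3822. The 10 members kept the direction of their mean change with that scaling.

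**Figure D1:**
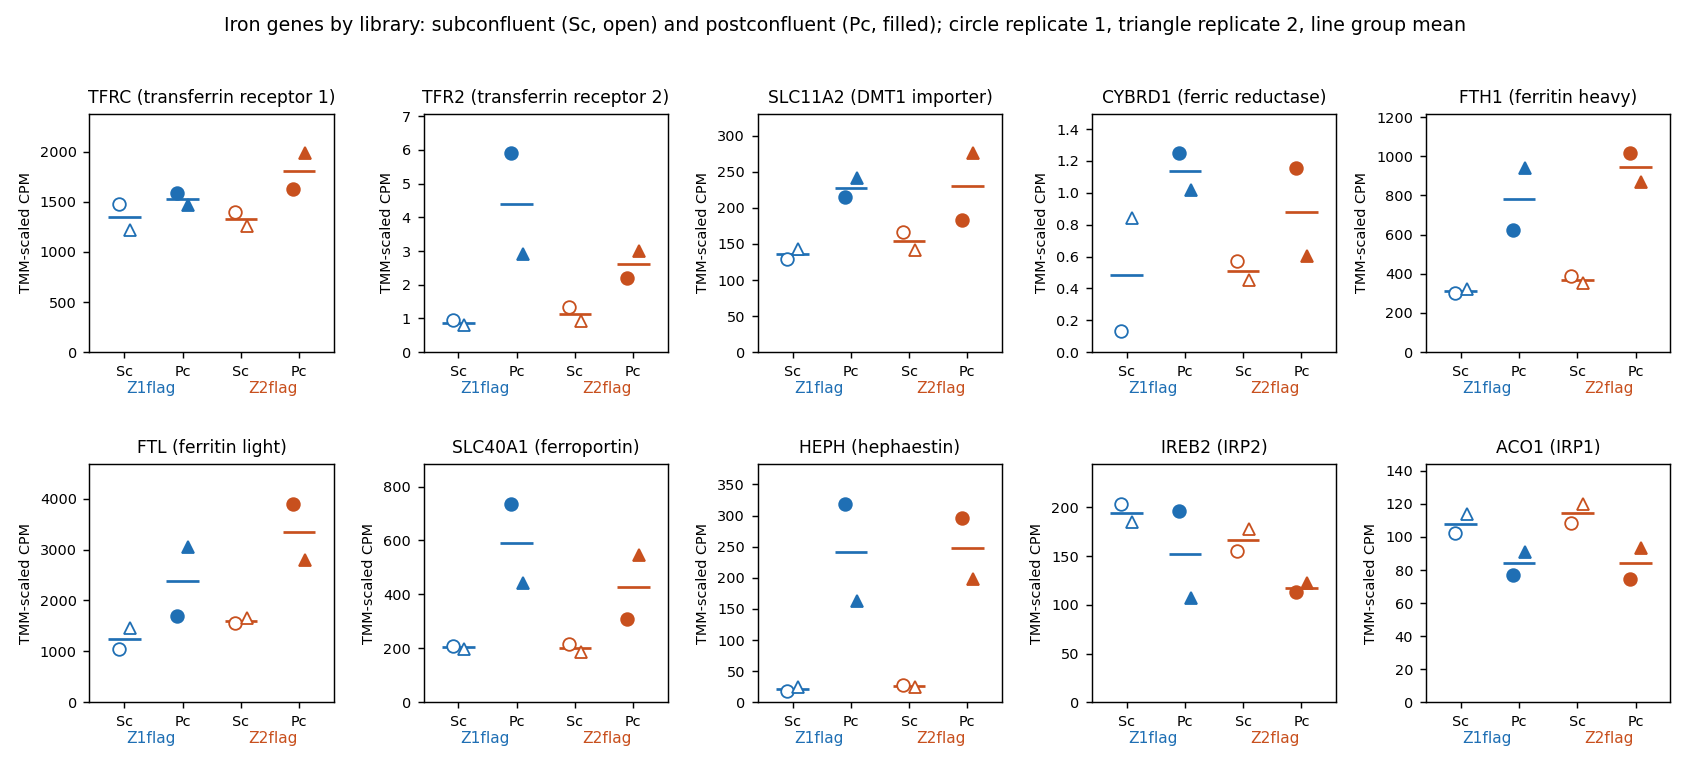
Level of each of the 10 members in every library (y axis, TMM-scaled CPM, from 0) by line and state (x axis; Sc subconfluent, Pc postconfluent). Open symbols are subconfluent and filled ones postconfluent, circles are replicate 1, triangles replicate 2, and lines the mean of a group's 2 libraries. HEPH stood at 19.0 to 28.4 CPM in subconfluent and 163 to 319 CPM in postconfluent libraries, while the states overlapped for TFRC, CYBRD1 and IREB2.

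Among the uptake genes, TFRC encodes transferrin receptor 1, the main route for transferrin-bound iron (chr3:196027183-196082189, minus strand). Its level was 1474 and 1219 CPM in subconfluent Z1flag replicates 1 and 2, and 1589 and 1471 CPM after confluence. In Z2flag cells the values were 1396 and 1262 CPM before and 1628 and 1983 CPM after. The states overlapped in Z1flag cells and were apart in Z2flag cells, with postconfluent Z2flag replicate 2 the highest library. Neither the Z1flag change of 0.18 (log2, SE 0.20, edgeR adjusted p = 0.493) nor the Z2flag change of 0.44 (SE 0.20, adjusted p = 0.109) passed. Over both lines it was 0.31 (SE 0.14, edgeR adjusted p = 0.0863), with a 95% interval of -0.0045 to 0.63. The Z2flag and mean changes passed in 6 alternatives each, among them leaving out postconfluent Z1flag replicate 1 (edgeR adjusted p = 0.0247 and 0.0425) or replicate 2 (0.0275 and 0.0312), or both libraries of high no-feature share (0.49, adjusted p = 0.0339, and 0.40, adjusted p = 0.0377).

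TFR2, a second transferrin receptor known mainly from liver and erythroid cells as a sensor of iron-loaded transferrin (chr7:100620416-100642779, minus strand), was scarce. Z1flag libraries held 0.946 and 0.801 CPM before and 5.90 and 2.91 CPM after confluence. Z2flag libraries held 1.35 and 0.929 CPM before and 2.21 and 3.01 CPM after. Every postconfluent library lay above every subconfluent one, and postconfluent Z1flag replicate 1 was the highest. These levels rest on 21 to 57 counts per subconfluent and 40 to 156 counts per postconfluent library. TFR2 rose in Z1flag cells by 2.34 (log2, SE 0.45, edgeR adjusted p = 0.00296) and, over both lines, by 1.76 (SE 0.31, adjusted p = 0.000956). The Z2flag change of 1.18 (SE 0.43, edgeR adjusted p = 0.0535) missed the threshold and passed in 10 of 18 alternatives, including those without postconfluent Z1flag replicate 1 (adjusted p = 0.0124), replicate 2 (0.0122) or both libraries of high no-feature share (1.23, adjusted p = 0.0247).

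SLC11A2 encodes DMT1, which carries ferrous iron across the apical membrane and out of endosomes (chr12:50979401-51028566, minus strand). The Z1flag libraries went from 129.7 and 143 CPM to 214 and 241 CPM. The Z2flag libraries went from 166 and 142 CPM to 184 and 276 CPM. The states did not overlap in either line or over both, with the smallest gap between subconfluent and postconfluent Z2flag replicate 1. SLC11A2 rose by 0.66 over both lines (log2, SE 0.16, edgeR adjusted p = 0.00581) and by 0.74 in Z1flag cells (SE 0.23, adjusted p = 0.0258), while the Z2flag change of 0.58 (SE 0.23, adjusted p = 0.0685) did not pass. The Z1flag call was lost without any 1 of the 4 subconfluent libraries (edgeR adjusted p from 0.0519 to 0.169) and without both libraries of high no-feature share (0.0958). The Z2flag change passed in 9 of 19 alternatives. With all libraries it passed with DESeq2 (adjusted p = 0.0364), RLE scaling (edgeR adjusted p = 0.0489), upper-quartile scaling (0.0285) and a stricter CPM filter (0.0376). It also passed with only the libraries compared (edgeR adjusted p = 0.0468). The other passes came without postconfluent Z1flag replicate 1 (log2 0.67) or 2 (0.66) or postconfluent Z2flag replicate 1 (0.92), or without both libraries of high no-feature share (0.62).

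CYBRD1, the duodenal ferric reductase that is a hallmark of iron-absorbing enterocytes (chr2:171522247-171558133, plus strand), stood near the limit of detection. It had 0.135 and 0.840 CPM in subconfluent and 1.25 and 1.02 CPM in postconfluent Z1flag cells. In Z2flag cells it had 0.570 and 0.450 CPM before and 1.16 and 0.601 CPM after confluence. Postconfluent values were higher within each line but the states overlapped across lines, and each value rests on 3 to 33 counts. The mean change of 0.98 (log2, SE 0.47, 95% interval -0.060 to 2.02, edgeR adjusted p = 0.0988) did not pass, nor did that within Z1flag (1.18, SE 0.66, adjusted p = 0.179) or Z2flag cells (0.78, SE 0.66, adjusted p = 0.373). Without subconfluent Z1flag replicate 2, which leaves that group the library with 3 counts, the Z1flag and mean changes became 3.02 (edgeR adjusted p = 0.0273) and 1.90 (0.0107). Without subconfluent Z1flag replicate 1 they became 0.41 (edgeR adjusted p = 0.641) and 0.59 (0.237), and without both libraries of high no-feature share 0.31 (0.718) and 0.57 (0.231).

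Both ferritin chains rose in each line. FTH1 encodes the heavy chain, which oxidises iron as it enters the ferritin shell (chr11:61959718-61967660, minus strand). Its level in Z1flag cells was 303 and 324 CPM before and 625 and 942 CPM after confluence. In Z2flag cells it was 389.8 and 352 CPM before and 1015 and 870.3 CPM after. All postconfluent libraries lay well above the subconfluent ones, and postconfluent Z1flag replicate 1 was the lowest of them. FTH1 rose by 1.32 in Z1flag (log2, SE 0.23, edgeR adjusted p = 0.00186) and, for Z2flag cells, by 1.35 (SE 0.23, adjusted p = 0.00196), and both calls were kept in each of 19 alternatives. Of its exon bases, 1267 are shared with BEST1 on the opposite strand, which had 550 counts over all libraries, while FTH1 had 44108 in subconfluent and 67871 in postconfluent libraries. The strand setting of the counting was not given in the sources used here. Reads of the shared bases that were set aside as ambiguous would be in neither count, and their number was not measured.

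FTL encodes the light chain, which supports the mineral core (chr19:48965301-48966878, plus strand). Levels in Z1flag cells were 1041 and 1461 CPM before and 1698 and 3049.6 CPM after confluence. In Z2flag cells they were 1549.9 and 1661 CPM before and 3904 and 2800.3 CPM after. No subconfluent library reached a postconfluent one, but postconfluent Z1flag replicate 1 came within 36.2 CPM of the highest subconfluent library. FTL rose by 0.92 in Z1flag (log2, SE 0.30, edgeR adjusted p = 0.0335), by 1.06 in Z2flag cells (SE 0.30, adjusted p = 0.0205) and by 0.99 over both (SE 0.21, adjusted p = 0.0030). The Z1flag call was lost with only the libraries compared (log2 0.97, edgeR adjusted p = 0.0696). It was also lost without any 1 of the 4 subconfluent libraries or without postconfluent Z1flag replicate 2 (log2 0.44 without the latter). The Z2flag call was lost without either subconfluent Z2flag library (edgeR adjusted p = 0.123 and 0.102) or postconfluent Z2flag replicate 1 (0.117). The annotation holds 25 FTH1 and 16 FTL pseudogenes, near-identical copies that made up 0.955% to 1.88% of FTH1 and 0.695% to 0.833% of FTL counts when added to them. Reads aligned more than once were not counted, so these shares do not measure reads that fit both a ferritin gene and a copy.

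Export genes gave the largest member change. SLC40A1 encodes ferroportin, the iron exporter of the basolateral membrane and the target of hepcidin (chr2:189560579-189583758, minus strand). Subconfluent libraries were close together, at 209.7 and 199.6 CPM in Z1flag and 218 and 186 CPM in Z2flag cells. Postconfluent libraries were spread, at 737 and 444 CPM in Z1flag and 307 and 547 CPM in Z2flag cells. The groups did not overlap, and postconfluent Z1flag replicate 1 was the highest and Z2flag replicate 1 the lowest of the postconfluent libraries. SLC40A1 rose by 1.53 in Z1flag (log2, SE 0.31, edgeR adjusted p = 0.00401) and, for Z2flag cells, by 1.08 (SE 0.31, adjusted p = 0.0202). The Z2flag call was lost without either subconfluent Z2flag library (edgeR adjusted p = 0.0706 and 0.136) or postconfluent Z2flag replicate 2 (0.128), and the Z1flag call without both libraries of high no-feature share (1.18, adjusted p = 0.0611).

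HEPH encodes hephaestin, the membrane-bound copper ferroxidase that oxidises iron as it leaves the enterocyte (chrX:66162549-66268867, plus strand). It had 19.0 and 24.1 CPM in subconfluent and 319 and 163 CPM in postconfluent Z1flag cells. In Z2flag cells it had 28.4 and 25.4 CPM before and 296 and 199 CPM after confluence. The lowest postconfluent library held several times the level of the highest subconfluent one, and replicate 1 was the higher postconfluent library in both lines. HEPH rose 11.2-fold in Z1flag (log2 3.48, SE 0.34, edgeR adjusted p = 0.000196) and 9.18-fold in Z2flag cells (log2 3.20, SE 0.34, adjusted p = 0.000252). Each call was kept in all 19 alternatives. The Z1flag change was 2.79 (edgeR adjusted p = 0.00581) without both libraries of high no-feature share.

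**Figure D2:**
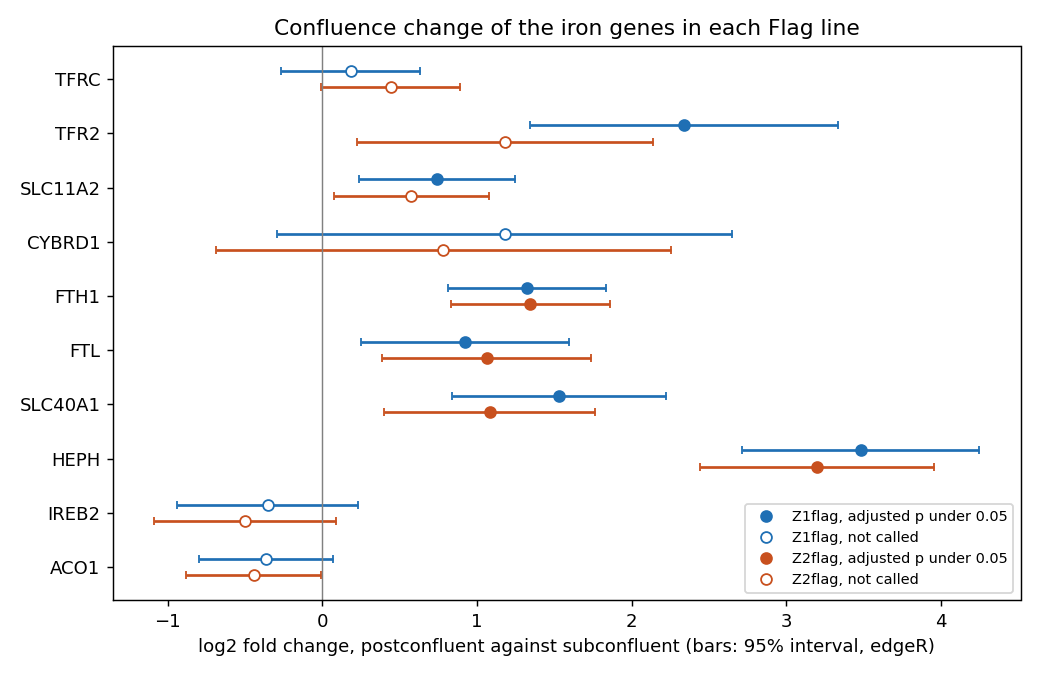
Change of each member after confluence (x axis, log2 fold change from edgeR, postconfluent against subconfluent; bars, 95% interval) in Z1flag (blue) and Z2flag cells (orange), filled where the adjusted p is under 0.05. HEPH lies farthest from 0 in both lines (3.48 and 3.20), IREB2 and ACO1 lie below 0, and the intervals of the lines overlap for every member.

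The regulators were lower or did not pass. ACO1 encodes IRP1, which is a cytosolic aconitase when it carries an iron-sulphur cluster and binds RNA when it does not (chr9:32384603-32454769, plus strand). It went from 102 and 114 to 77.3 and 90.8 CPM in Z1flag cells. In Z2flag cells it went from 109 and 120.2 to 74.5 and 93.6 CPM. All postconfluent libraries lay below all subconfluent ones, by a margin of 8.74 CPM between the nearest. ACO1 fell by 0.40 over both lines (log2, SE 0.14, edgeR adjusted p = 0.0295) and did not pass within Z1flag (-0.36, SE 0.19, adjusted p = 0.161) or Z2flag cells (-0.45, SE 0.19, adjusted p = 0.0959). The mean call was lost without any 1 of the 4 subconfluent libraries, postconfluent Z1flag replicate 1 or postconfluent Z2flag replicate 1 (edgeR adjusted p from 0.0515 to 0.156), without both libraries of high no-feature share (-0.35, adjusted p = 0.0687), and with upper-quartile scaling (-0.22, adjusted p = 0.192).

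IREB2 encodes IRP2, which is broken down when iron is plentiful (chr15:78437431-78501456, plus strand). Its levels were 204 and 185 CPM in subconfluent and 197 and 107 CPM in postconfluent Z1flag cells. Z2flag cells had 155 and 177 CPM before and 113 and 122 CPM after confluence. In total 3 of the 4 postconfluent libraries lay below every subconfluent one, and postconfluent Z1flag replicate 1 stood apart from them, at a subconfluent level. The change was -0.35 in Z1flag (log2, SE 0.26, edgeR adjusted p = 0.307), -0.50 in Z2flag cells (SE 0.26, adjusted p = 0.160) and -0.43 over both (SE 0.19, adjusted p = 0.0750). Without postconfluent Z1flag replicate 1 it was -0.82 in Z1flag (edgeR adjusted p = 0.00746), -0.41 in Z2flag cells (0.0434) and -0.62 over both (0.00168). Without postconfluent Z1flag replicate 2 it was 0.0085 in Z1flag (edgeR adjusted p = 0.975), -0.41 in Z2flag cells (0.0430) and -0.20 over both (0.161). Without both libraries of high no-feature share it was -0.76 in Z1flag (edgeR adjusted p = 0.0348), -0.45 in Z2flag cells (0.0369) and -0.60 over both (0.00664).

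Counted by line, 6 members rose in Z1flag cells (TFR2, SLC11A2, FTH1, FTL, SLC40A1 and HEPH) and 4 in Z2flag cells (FTH1, FTL, SLC40A1 and HEPH), and none fell. The shares of all genes that rose and fell were 21.3% and 19.1% in Z1flag cells and 18.3% and 19.3% in Z2flag cells. The median member change was 1.05 and 0.92 (log2), and that of all genes 0.04 and -0.05. At an unadjusted p under 0.05, 0 members fell in Z1flag and 1 in Z2flag cells. Fits that leave libraries out moved some calls. Without postconfluent Z1flag replicate 1, the Z2flag changes were 0.53 for TFRC, 1.27 for TFR2 and 0.67 for SLC11A2. With all libraries they were 0.44, 1.18 and 0.58. Without subconfluent Z2flag replicate 2, the Z2flag changes were 1.10 for FTL and 0.96 for SLC40A1, beside 1.06 and 1.08 with all libraries. Counts of members from such fits are not set here against all genes.

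A difference between the lines was not detected for any member. For the change after confluence in Z2flag minus that in Z1flag cells, edgeR called 0 of 10 members (adjusted p from 0.799 to 0.992), with 0% of all genes called and 0 called by DESeq2 or limma voom. No member had an unadjusted p under 0.05, and 902 of the 18240 genes did. Precision differed between members: the 95% interval of the difference ran from -0.69 to 0.74 (log2) for FTH1 and from -1.27 to 0.70 for HEPH. It ran from -2.52 to 0.21 for TFR2 and was widest for CYBRD1, from -2.48 to 1.69. Compared within a state, Z2flag and Z1flag cells again gave 0 members in subconfluent cells (0% of all genes called, 195 at an unadjusted p under 0.05) and 0 in postconfluent cells (0% called, 1308 at an unadjusted p under 0.05), with 0 genes by DESeq2 or limma voom in either. The largest postconfluent difference was TFR2, at -0.77 (log2, SE 0.42, edgeR adjusted p = 0.638). In postconfluent cells without Z1flag replicate 2, the differences were 1.04 for FTL and -0.69 for IREB2 (log2). With all libraries they were 0.50 and -0.37.

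To compare genes with each other, CPM was divided by the length of each gene's exons in kilobases. All annotated exons of a gene were merged for this (FTL 878, FTH1 2030 and TFRC 7887 bases). The transcripts expressed here can be shorter, so the order between genes is approximate. In subconfluent cells FTL was the most abundant member, at 1627 ± 309 CPM per kb (SD, n = 4 libraries). TFRC (170 ± 15.0) and FTH1 (168 ± 18.6) followed at levels that overlapped, then SLC40A1 (46.9 ± 3.14). IREB2 (16.7 ± 1.86), ACO1 (14.7 ± 1.01) and SLC11A2 (14.3 ± 1.49) could not be told apart, HEPH stood at 3.41 ± 0.551, and TFR2 (0.199 ± 0.0474) and CYBRD1 (0.0964 ± 0.0564) overlapped at the bottom. After confluence the order per kb was FTL (3261 ± 1036), FTH1 (425 ± 83.3), TFRC (211 ± 27.98) and SLC40A1 (118 ± 41.8), with no overlap between neighbours. HEPH (34.3 ± 10.6) came next and overlapped with SLC11A2 (22.6 ± 3.85), which overlapped with IREB2 (12.5 ± 3.86), which overlapped with ACO1 (11.1 ± 1.26). TFR2 (0.692 ± 0.323) lay above CYBRD1 (0.195 ± 0.0553) without overlap. Per kb, HEPH thus stood below IREB2, ACO1 and SLC11A2 in every subconfluent library and above IREB2 and ACO1 in every postconfluent one.

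Ratios within a library do not depend on the scaling between libraries, and are given as a description with no test. Their size depends on the exon lengths used. The light to heavy chain ratio (FTL to FTH1, per kb) was 9.62 ± 1.33 in subconfluent and 7.52 ± 1.07 in postconfluent libraries (SD, n = 4). The states overlapped over both lines but not within either. Z1flag cells had 7.95 and 10.4 before and 6.28 and 7.49 after confluence. Z2flag cells had 9.19 and 10.9 before and 8.89 and 7.44 after. TFRC against both ferritin chains together was 0.0982 ± 0.0284 before and 0.0621 ± 0.0220 after confluence, with overlap over both lines. Within Z1flag cells that ratio was 0.140 and 0.0848 before and 0.0899 and 0.0474 after, and within Z2flag cells 0.0905 and 0.0775 before and 0.0417 and 0.0695 after. IREB2 to ACO1 was 1.14 ± 0.179 before and 1.145 ± 0.434 after confluence, with postconfluent Z1flag replicate 1 at 1.78 and replicate 2 at 0.826. Over both lines, only TFRC to TFR2 of these 4 ratios was apart between states, at 878 ± 154 before and 349 ± 133 after confluence.

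**Figure D3:**
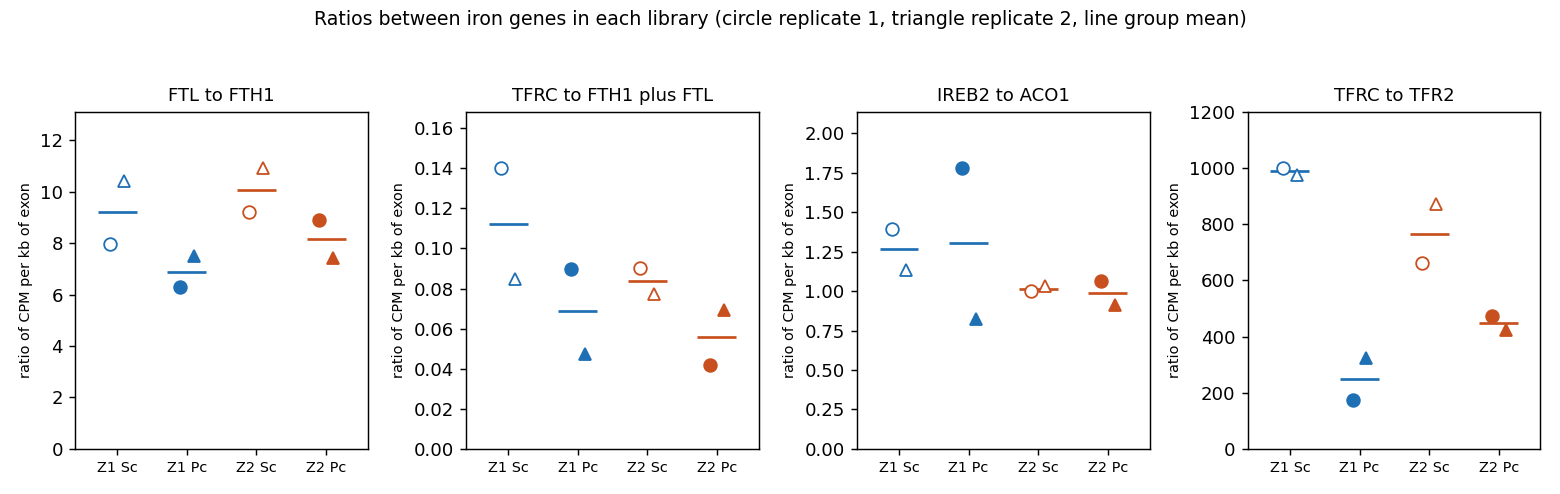
Ratios of CPM per kb of exon between members in each library (y axis, from 0) by line and state (x axis); open symbols are subconfluent, filled postconfluent, circles replicate 1, triangles replicate 2, and lines group means. TFRC to TFR2 lies between 662 and 1000.5 in subconfluent and between 173 and 474 in postconfluent libraries. Over both lines the other ratios overlap between the states, while FTL to FTH1 does not overlap within either line.

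Other genes of iron and haem handling were counted from 10 lists of 87 genes, of which 76 were tested. In the mean change over both lines 16 rose (21.1%) and 27 fell (35.5%), with a median of -0.11 (log2), beside 27.8% and 27.5% of all genes. CP (ceruloplasmin), the secreted relative of hephaestin, rose from 1.26 ± 0.455 to 26.6 ± 15.0 CPM (SD, n = 4; log2 4.41, SE 0.46, edgeR adjusted p = 4.88e-05), and it was the one tested gene of the 2 other copper ferroxidases. Of its exon bases, 1418 are shared with HPS3 on the opposite strand. Of 4 tested genes of hepcidin and its control, TMPRSS6, a protease that lowers hepcidin in liver, rose from 0.969 ± 0.534 to 54.9 ± 37.2 CPM (log2 5.88, SE 0.43, edgeR adjusted p = 9.14e-06), and 3 did not pass. Among those was HFE, the haemochromatosis protein (log2 0.10, adjusted p = 0.674), and hepcidin itself (HAMP) was not tested, with 8 and 2 counts over the subconfluent and postconfluent libraries.

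Of 8 tested genes of the transferrin cycle and other uptake, 2 rose and 4 fell (median -0.58). TF, transferrin itself, rose from 0.532 ± 0.336 to 7.84 ± 4.50 CPM (SD, n = 4; log2 3.97, SE 0.46, edgeR adjusted p = 7.83e-05), and STEAP3, the endosomal ferric reductase, fell from 53.4 ± 4.57 to 22.4 ± 5.51 CPM (log2 -1.27, SE 0.15, adjusted p = 8.25e-05). TF shares 112 exon bases with SRPRB on the same strand. TF, CP and TMPRSS6 are known from liver, and they rose together with the hepatocyte markers, of which SERPINA1 went from 199 ± 77.0 to 2047 ± 534 CPM and ALB from 7.07 ± 5.34 to 42.4 ± 15.3 CPM. The part of a hepatocyte-like programme in these changes was not tested.

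Among 5 genes that control the iron regulatory proteins, 1 rose and 2 fell (median -0.04). CUL1, the scaffold of the ubiquitin ligase that acts on IRP2, fell from 148 ± 8.04 to 38.1 ± 4.80 CPM (SD, n = 4; log2 -1.96, SE 0.14, edgeR adjusted p = 8.46e-06), and its ring subunit RBX1 fell by 0.72 (SE 0.16, adjusted p = 0.00381). FBXL5, the iron-sensing adaptor of that ligase, rose by 0.51 (log2, SE 0.17, edgeR adjusted p = 0.0296). The FBXL5 call was lost without any 1 of the 4 subconfluent libraries or postconfluent Z2flag replicate 1. Of 4 tested mRNAs known to carry iron-responsive elements outside the member list, 2 rose and 1 fell (median 0.04). EPAS1, the hypoxia factor HIF-2α, rose by 0.89 (log2, SE 0.17, edgeR adjusted p = 0.00163), and CDC42BPA, a kinase, fell by 0.84 (SE 0.17, adjusted p = 0.00235). Fewer of these mRNAs rose without any 1 of the same 5 libraries, and more fell without postconfluent Z1flag replicate 2. Of 6 tested iron chaperones and ferritin turnover genes, 1 rose and 1 fell (median 0.03): NCOA4, the receptor that delivers ferritin to lysosomes, rose from 434 ± 37.4 to 597 ± 80.8 CPM (log2 0.46, SE 0.14, edgeR adjusted p = 0.0187), and GLRX3, a glutaredoxin that carries iron-sulphur clusters, fell by 0.76 (SE 0.17, adjusted p = 0.00432). Fewer of these genes rose without subconfluent Z1flag replicate 1 or either subconfluent Z2flag library. More rose and more fell without postconfluent Z1flag replicate 1. Numbers from fits without a library are not set here against all genes.

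Haem and iron-sulphur genes moved in both directions. In haem transport and breakdown, 3 of 12 rose and 3 fell (median 0.09). LRP1, the receptor for haem bound to haemopexin, rose from 153 ± 17.6 to 688 ± 129.8 CPM (SD, n = 4; log2 2.17, SE 0.18, edgeR adjusted p = 1.32e-05), BLVRB, a biliverdin reductase, rose by 0.80 (SE 0.15, adjusted p = 0.00124), and HMOX1, which frees iron from haem, fell from 54.1 ± 9.49 to 18.4 ± 12.2 CPM (log2 -1.65, SE 0.33, adjusted p = 0.00203). Without postconfluent Z1flag replicate 2, more of these 12 rose and more fell. Here too, numbers from fits without a library are not set against all genes. In haem synthesis 3 of 11 rose and 5 fell (median -0.30), with the porphyrin enzyme UROD at -1.34 (log2, SE 0.16, edgeR adjusted p = 8.4e-05) and ALAS1, the first enzyme outside red cells, at 1.00 (SE 0.15, adjusted p = 0.000338). Of 17 tested genes of mitochondrial iron and iron-sulphur assembly, 2 rose and 7 fell (median -0.28), with BOLA3 at -1.23 (log2, SE 0.18, edgeR adjusted p = 0.00029). Fewer of these 17 rose without any 1 of the 4 subconfluent libraries or postconfluent Z2flag replicate 1. Of 8 cytosolic iron-sulphur assembly genes, 4 fell and 0 rose (median -0.29), with the electron carriers CIAPIN1 at -0.998 (log2, SE 0.13, edgeR adjusted p = 0.000139) and NDOR1 at -0.90 (SE 0.17, adjusted p = 0.00124). Without subconfluent Z1flag replicate 2, subconfluent Z2flag replicate 1 or postconfluent Z2flag replicate 1, fewer of these 8 fell. LRP1, CIAPIN1 and FBXL5 share 59, 104 and 18 exon bases with a gene on the opposite strand.

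**Figure D4:**
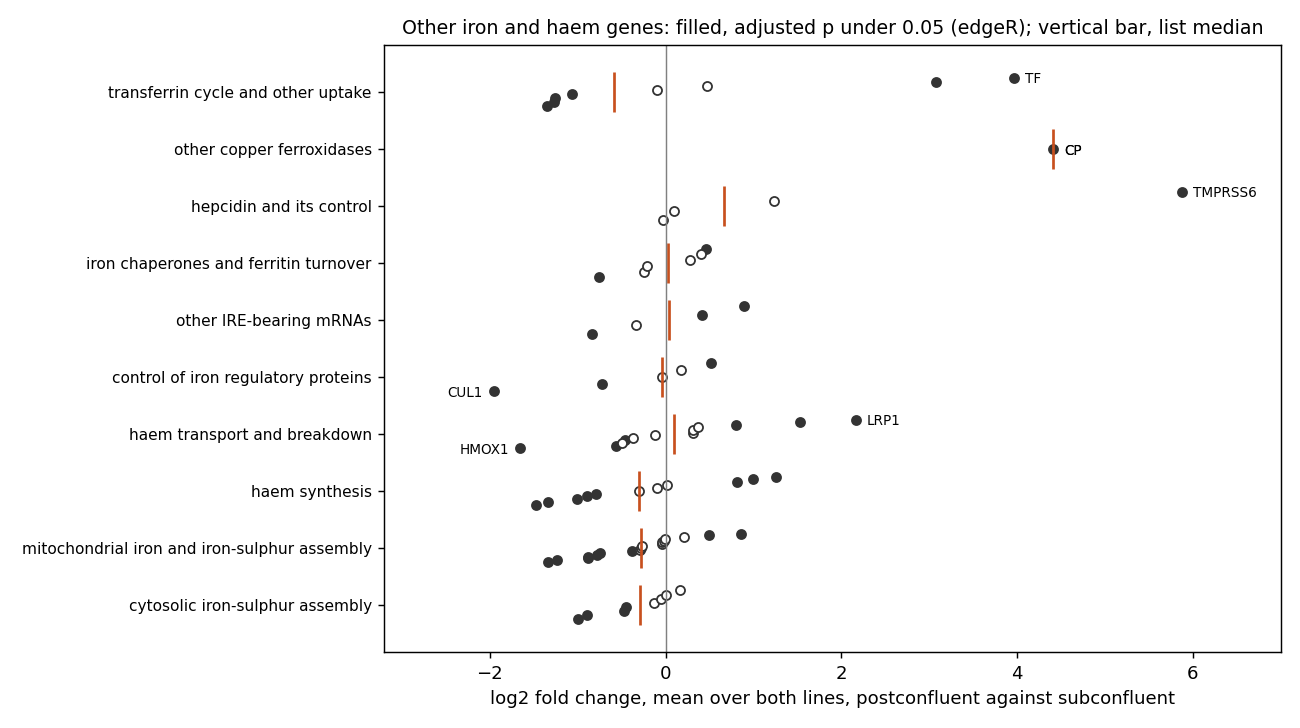
Change of the 76 other tested iron and haem genes after confluence (x axis, log2 fold change from edgeR, mean over both lines) by list (y axis), filled where the adjusted p is under 0.05, with the list median as a vertical bar. The list medians lie between -0.58 and 0.67, apart from copper ferroxidases, where CP alone stands at 4.41, and TMPRSS6 lies farthest to the right at 5.88.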

How the data were processed

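RNA was measured in 8 libraries of Caco-2/15 cells. Per the labels' protocols these were strand-specific, rRNA-depleted, paired-end libraries sequenced on an Illumina NextSeq instrument, and per the submitters' processing notes STAR 2.5.2b, SAMtools, HTSeq and hg38 were used. The gene annotation and the strand setting of the counting were not given in the sources used here. In the files, the deposited values are raw read counts for 58302 Ensembl gene IDs, of which 57532 had a symbol and 58039 were in GENCODE v29, which gave positions and exon lengths on GRCh38. HTSeq's classes of unassigned reads were left out: reads in no feature (20.6% to 32.0%), ambiguous reads (5.39% to 7.86%) and reads aligned more than once (6.59% to 10.3%). The last 2 shares were higher in every postconfluent than in every subconfluent library. Ambiguous reads reached at most 5.69% before and at least 6.17% after confluence, and reads aligned more than once at most 6.89% and at least 7.84%. The part of these losses in the member changes was not tested.

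Groups came from the sample titles, with 2 libraries each. The cultures behind them were not given in the sources used here, so p-values measure the spread between these samples. Members and gene lists were chosen with earlier results of these data known. The named list genes are up to 2 per list with the smallest adjusted p in the mean change and a mean of at least 1 CPM, the first called gene of the other direction, and HAMP, TF and HMOX1; some genes picked by this rule are not reported here.

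The test was the robust quasi-likelihood F test of edgeR 4.0.16 (R 4.3.3) after TMM scaling, with all 8 libraries in a model of 4 group means that leaves 4 residual degrees of freedom. It ran on 18240 genes left by filterByExpr (minimum count 10, minimum total 15), with Benjamini-Hochberg adjustment over all of them and a threshold of 0.05. The SE of a log2 fold change follows from its F statistic, and 95% intervals from that SE. The pipeline was tested on simulated counts. The replicate number is the Exp number in the sample titles. Deviations of libraries with the same replicate number correlated weakly (r from -0.18 to 0.178 over pairs of groups), so the numbers were not taken to pair them. Both Z1flag libraries of replicate 1 had the highest no-feature shares (32.0% and 31.4%), and the part of a shared experiment in this was not tested. The alternatives tried were DESeq2 1.42.0, limma 3.58.1 voom, RLE scaling, upper-quartile scaling, no filter, CPM of at least 5 in 2 libraries, only the libraries compared, a replicate block, the no-feature share as a covariate, pseudogene counts added to ferritin, a log2 change of at least 1, and leaving out each library. A fit without both libraries of highest no-feature share, a crossed replicate block and the counts of other lists under these settings were added after the data were seen. Figures were made with matplotlib 3.10.9.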

Additional observations from a re-analysis of the deposited data

Results flagged for a closer look

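Each member was checked for a library far from the other 3 of its state, in 20 groups of 4 libraries, where chance gives such a library in about 1 group in 20. It was found for IREB2, where postconfluent Z1flag replicate 1 stood at 197 CPM, while the others after confluence held 107 to 122 CPM, a gap of 0.833 of the whole range. That library also had one of the highest shares of reads in no feature, 31.4%, and the part of that share in its IREB2 level was not tested.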

How the results depend on the processing

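Of 554 recomputed member changes, 482 kept their direction and their side of the threshold, 27 lost a call, 44 gained one and 1 changed sign (IREB2 within Z1flag cells, 0.0085 without postconfluent Z1flag replicate 2, with -0.82 as the lowest value on leaving out a library). The mean rises of TFR2, SLC11A2, FTH1, FTL, SLC40A1 and HEPH passed in every alternative that tested them, other than the fold minimum; the CPM filter left out TFR2 and CYBRD1. The cause of the changes below was not tested, and these counts of members are not set beside the share of all genes in the same fit. The members that rose in Z2flag cells numbered 4 in the main fit and 7 with upper-quartile scaling or only the libraries compared. TFR2 and SLC11A2 also passed there with DESeq2 (adjusted p = 0.0381 and 0.0364) and RLE scaling (edgeR adjusted p = 0.0413 and 0.0489). TFRC and SLC11A2 passed with the CPM filter (edgeR adjusted p = 0.0481 and 0.0376). That number also changed on leaving out single libraries or both libraries of highest no-feature share. The members that fell numbered 1 in Z2flag cells with the no-feature covariate, with only the libraries compared and without both those libraries (0 to 1 on leaving out single libraries), and 1 in Z1flag cells without both those libraries (0 to 1). In the mean change, 0 fell with the CPM filter, upper-quartile scaling or a log2 change of at least 1, 2 fell with no filter or with the no-feature covariate, and 0 to 1 on leaving out single libraries. Between postconfluent lines, 0 to 2 members passed on leaving out single libraries. With the replicate block 6 members rose and 0 fell in Z1flag, 5 rose and 0 fell in Z2flag cells, 6 rose and 1 fell in the mean change, and 0 differed between lines. The crossed replicate block also gave 0 in postconfluent cells. Leaving out a library leaves its group 1 library, assumed to vary like the others. Few counts limit TFR2 and CYBRD1.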
